A study of Mus musculus with 4 samples.

Results

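Arterial endothelial cells of the mouse retina were picked out of 4 single-cell RNA libraries by the transcripts they carried, and 545 of 21410 barcodes were members. Transcripts were counted as unique molecular identifiers (UMIs), each of which marks 1 captured RNA molecule. Barcodes needed no fewer than 500 UMIs and 300 genes, with mitochondrial UMIs no more than 20% of the total. Such a barcode was taken as endothelial when Cldn5, Cdh5, Pecam1 and Flt1 together gave at least 4 UMIs over at least 2 genes, the pericyte genes Pdgfrb, Kcnj8 and Abcc9 gave at most 1, and the Müller glia gene Rlbp1 gave at most 2. It was taken as arterial when Bmx, Sema3g, Hey1, Stmn2 and Egfl8 together gave at least 3 UMIs over at least 2 genes. Cells in which Lcn2, Lrg1, Ackr1 and Serpina3n gave at least 4 UMIs over at least 2 genes, called inflamed here, were dropped. Control 1 and Control 2 gave 109 and 55 arterial cells, and Diabetic 1 and Diabetic 2 gave 259 and 122. The other endothelial cells of the same libraries, 2694 in all, served for comparison. The members were chosen by the measured UMI counts of these 17 genes, so the values of these genes are descriptions only.

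The study compared retinas labelled Ctrl, called Control here, with retinas labelled Diabetic, and each group has 2 replicate libraries. Live CD31+ cells, CD31 being the product of Pecam1, were enriched with microbeads in both groups and sequenced with the 10x Chromium 3′ v3 chemistry. The labels used here give no strain, age, sex, model or duration of diabetes, and no number of retinas per library. Nothing in them ties a replicate to its own animal, so the spread between libraries that the p-values measure may be technical. Where the library is a block, a p-value measures how the difference between the cell classes of a library varies between libraries.

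Arteries carry blood from the optic disc into the retina under fast flow and high pressure. Their endothelium is set apart by Notch signalling, in which the ligands DLL4 and JAG1 act on NOTCH receptors and switch on Hey1, and by Efnb2, Unc5b, Sox17 and the gap junction genes Gja4 and Gja5. It also helps to build the elastic wall through fibulins and elastin, and it controls vascular tone through nitric oxide and endothelin.

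The arterial cells held 343839 to 1402276 UMIs per library, with a median of 4383 to 5861 per cell against 2599 to 3396 in the other endothelial cells. Their median mitochondrial share was 5.56%, 5.31%, 2.72% and 3.77% in Control 1, Control 2, Diabetic 1 and Diabetic 2, lower in both Diabetic libraries. All values below are listed in this library order. Levels are given as CPM, the UMIs of a gene per 1000000 UMIs summed over the cells. RNA of 11 rod photoreceptor genes made up 21462, 5770, 13024.5 and 5877 CPM in the arterial cells and 33775 to 51629 CPM in the other endothelial cells, so Control 1 and Diabetic 1 stood apart from their replicate partners. Each comparison is therefore also given for cells in which the rod genes made up at most 2% of the UMIs, called rod-limited cells, a limit chosen after the data had been seen. They numbered 97, 52, 239 and 116 arterial and 455, 177, 1021 and 443 other endothelial cells. The part of rod RNA in the results was not tested beyond this limit. Pairs of libraries shared 5 to 9 cell barcodes.

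The gate genes define the label and so cannot check it, and their shares are given as a description. Sema3g, a secreted semaphorin, was found in 71.6%, 80%, 70.7% and 71.3% of the arterial cells, and Bmx, a tyrosine kinase, in 71.6%, 63.6%, 56.8% and 60.7%. Rods, which should lack both, were taken as barcodes with at least 10 UMIs over at least 3 rod marker genes and no UMI of the 4 endothelial genes. They had median depths of 1684.5 to 2759 UMIs, and a Sema3g UMI was found in at most 0.935% of them and a Bmx UMI in at most 0.519%. All 5 gate markers were found in 5.505%, 12.7%, 9.27% and 12.3% of the arterial cells, and 2 of them in 24.8%, 25.5%, 37.5% and 36.1%. The label was checked on a gene that chose no cell. Gkn3, a secreted gastrokine used as a marker of brain arteries, was present in 28.4%, 41.8%, 13.9% and 17.2% of the arterial cells, against 1.002% to 4.58% of the other endothelial cells and at most 0.457% of the rods. After thinning of every cell to 1000 UMIs the Gkn3 shares were 10.2%, 25.9%, 7.45% and 10% in arterial cells and 0.449% to 2.35% in the others. Since rods were picked free of endothelial UMIs, their shares can understate the background. A wider set took in every non-endothelial barcode past the same rod limit, 1943 to 5575 a library, and can hold other cell types and mixtures. Gkn3 was found in 1.94% to 3.37% of that set, so its share in arterial cells lay above every background given here in all 4 libraries.

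The cells that just passed, with 3 marker UMIs over at least 2 genes, numbered 28, 7, 62 and 31, and the cells that just failed, with 2 UMIs over 2 genes, numbered 47, 9, 88 and 32. Gkn3 measured 37.9, 136, 94.6 and 33.8 CPM in the first and 51.2, 57.7, 37.8 and 0 CPM in the second, and 195, 557, 159 and 240 CPM in cells with over 5 marker UMIs. In all 4 libraries Gkn3, Gja4 and Fbln2 were thus lower in the cells that just passed than in those with over 5 marker UMIs. Efnb2 was lower in 3, and Control 1 was the exception at 137 against 107 CPM. Gja4 was higher in the cells that just passed than in those that just failed in all 4 libraries. This did not hold for Gkn3 in Control 1. In Diabetic 2 it did not hold for Fbln2, at 4.82 against 11.3 CPM, or for Efnb2, at 62.7 against 129 CPM. Markers of arterial smooth muscle, which lies against these cells, summed to 341, 529, 472 and 195 CPM in the arterial cells and 66.7 to 140.1 CPM in the other endothelial cells. Of these 10 genes Cnn1 and Actg2 had no UMI in the arterial cells, and Acta2, smooth muscle actin, measured 43.1 to 111 CPM. The part of smooth muscle RNA in the values below was not tested.

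Most genes of the arterial identity and Notch list, and some of the matrix list, were higher in arterial cells than in the other endothelial cells of the same library. With the library as a block, edgeR called 2756 of 11190 genes higher (24.6%) and 2479 lower (22.2%), 46.8% in all, at an adjusted p under 0.05. In rod-limited cells the same test called 417 of 9758 genes higher (4.27%) and 234 lower (2.4%), 6.67% in all. The arterial identity and Notch list had 22 of its 29 tested members higher and 2 lower in rod-limited cells, with a median log2 difference of 0.58. In all cells that median was 1.40, and over all genes it was −0.01 in both sets of cells. The elastic fibre and matrix list had 12 of 27 members higher and 0 lower in rod-limited cells, with a median of 0.46.

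Gkn3, Fbln2, Fbln5, Vegfc, Pi16, Tmem100, Col5a2, Col8a1, Lama3 and Dkk2 had the highest arterial levels relative to the rest by the naming rule. Vegfc, a growth factor of the VEGF family, measured 116, 224, 65.6 and 98.8 CPM in arterial cells and 11.1, 12.3, 4.96 and 5.17 CPM in the others, a rod-limited difference of 3.07 ± 0.17 (log2, SE, edgeR adjusted p = 1.09e-10). Tmem100, a membrane protein induced by BMP signalling, measured 49, 131, 82.7 and 92.5 CPM against 3.69, 0.877, 7.71 and 6.78 CPM. Pi16, named as a peptidase inhibitor, measured 70.4, 163, 49.2 and 36.7 CPM against 2.897, 4.39, 3.44 and 2.26 CPM. For each of these 3 genes the lowest arterial library lay above the highest library of other endothelial cells.

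Gja4, which encodes connexin 37, measured 44.4, 122, 72.7 and 65.9 CPM in arterial cells and 5.17 to 7.64 CPM in the others, and the rod-limited difference was 2.73 ± 0.22 (log2, SE, edgeR adjusted p = 2.66e-08). Gja5, which encodes connexin 40, was sparse, with 10, 4, 6 and 3 UMIs in the arterial cells. The guidance receptor gene Unc5b was higher by 1.24, the ephrin gene Efnb2 by 1.10, Dll4 by 0.78, Jag1 by 0.71 and the transcription factor gene Sox17 by 0.43 on the log2 scale, and all passed the edgeR test in rod-limited cells. Notch4 did not pass there, with a difference of 0.15 ± 0.12 and an adjusted p of 0.597 by edgeR. Cxcl12, a chemokine made by arterial endothelium, gave −0.30 in rod-limited cells, where it was called lower (adjusted p = 0.00439, edgeR), and 0.63 in all cells, where it was called higher.

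In rod-limited cells the capillary genes that passed the test were lower, and venous genes were split. The capillary list had 9 of 15 members lower and 0 higher in rod-limited cells by edgeR, among them Car4, a carbonic anhydrase, at 5.82 to 14.98 CPM against 29.3 to 69.3 CPM. In all cells the same list had 10 members higher and 2 lower, so its direction flipped with the rod limit. Slc38a5, an amino acid transporter, had a difference of −1.61 and Slc16a1, the lactate transporter, of −0.70 on the log2 scale, both called by edgeR in rod-limited cells. The venous list was split there, with Vcam1, a leukocyte adhesion molecule, among the 2 members that were higher (2.14) and Slc38a5 among those that were lower. In all cells 5 of 10 venous members were higher and 1 lower, so the median went from 0.67 there to −0.27 in rod-limited cells. None of 14 tight and adherens junction genes passed edgeR in rod-limited cells, where 5 had an unadjusted p under 0.05, while 12 of 16 were called higher in all cells. DESeq2 was not run on this list in rod-limited cells. The 5 genes lowest in arterial cells by the naming rule were Penk, Ctss, C1qb, C1qa and Gm21846. Microglial markers, among them the complement genes, summed to 27.1, 6.14, 185 and 413 CPM in the other cells against 7.66, 40.7, 41.4 and 8.87 CPM in the arterial cells.

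**Figure D1:**
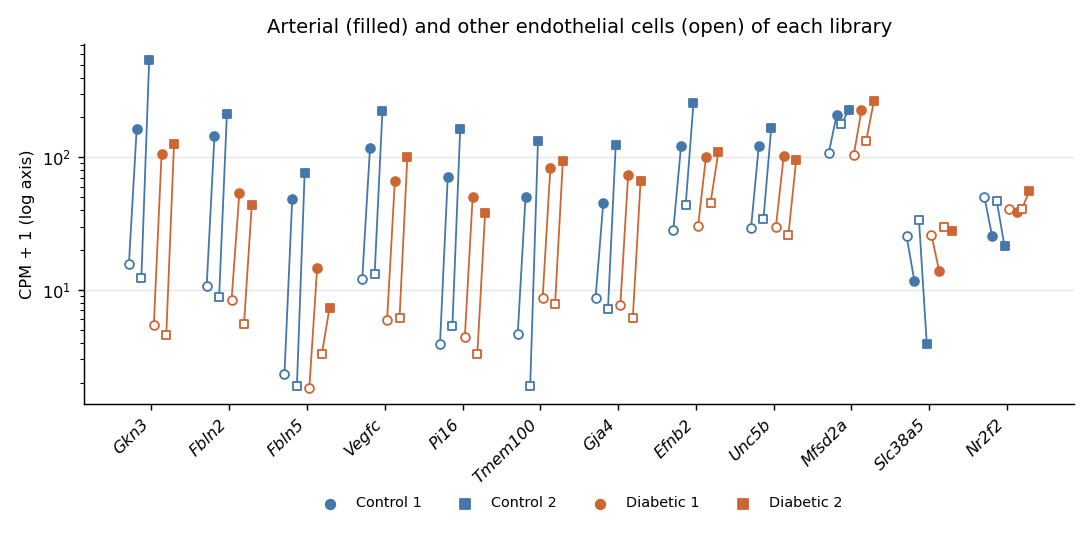
CPM plus 1 (log axis) of 12 genes in the other endothelial cells (open) and the arterial cells (filled) of each library; blue is Control, orange Diabetic, circles replicate 1 and squares replicate 2. Gkn3, Vegfc, Pi16, Tmem100 and Gja4 are higher in the arterial cells of all 4 libraries, Gja4 going from at most 7.64 to at least 44.4 CPM.

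The share of endothelial cells that were arterial did not separate the groups. It was 14.7% (95% exact Clopper-Pearson interval 12.2% to 17.4%) in Control 1, 20.8% (16.03% to 26.1%) in Control 2, 16.1% (14.3% to 17.96%) in Diabetic 1 and 19.6% (16.6% to 22.99%) in Diabetic 2. The difference of the means was 0.139 percentage points, and a two-sided exact permutation test gave p = 1, with only 2 libraries a group, so that no p under 0.05 was possible. The intervals cover counting error only. After thinning to 1000 UMIs the shares were 3.63%, 4.17%, 4.24% and 3.33%.

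The calls between Diabetic and Control arterial cells described here came from rod-limited cells or DESeq2, since edgeR over all arterial cells gave none. They included elastic fibre and heat shock genes, which were lower in the Diabetic cells. Genes of the cytokine, immediate early and fatty acid responses were also among them and were higher. Over all arterial cells edgeR called 0 of 8615 genes (0%) at an adjusted p under 0.05, with 500 at an unadjusted p under 0.05 (5.8%), of which 283 were higher (3.28%) and 217 lower (2.52%). DESeq2 called 10 of the same genes (0.116%): Hbb-bt, Ctla2a, Pim3, Ucp2, Lrg1, Cebpd and Ch25h were higher (0.0813%) and Ifi27l2a, Hsph1 and Fbln2 lower (0.0348%). Lrg1 is a gate gene, so its place among these calls is a description and not a test result. DESeq2 gave no adjusted p for 2005 of the 8615 genes, which could therefore not be called, here or in the lists below. In rod-limited cells edgeR called 112 of 7763 genes (1.44%), 62 higher (0.799%) and 50 lower (0.644%), and 2 of the 112 were gate genes. Of the 112, 111 were also tested in all arterial cells, where each had the same direction and an unadjusted p under 0.05, and the 10 genes that DESeq2 called were among them. The rod-limited cells are 97 of 109, 52 of 55, 239 of 259 and 116 of 122 of the same cells, so this overlap is no independent support. In what follows, rose and fell refer to the edgeR test in rod-limited cells, and CPM values are from all arterial cells. Changes are log2 fold changes from that test, ± an SE derived from its F statistic. No gene that rose or fell was called by the same test over all arterial cells. In bulk sums of this kind, fewer cells with a transcript and less of it per cell cannot be told apart unless the share of cells is given. The gene lists, here and above, were set with earlier results of these data known. Their counts beside the share of all genes are therefore descriptions and not tests of a theme.

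Some elastic fibre and matrix genes fell. Of 23 tested members of the list 4 fell and 1 rose, where 0.644% and 0.799% of all genes did so. The list median was −0.21 against 0.00 for all genes. In all arterial cells the members were nearly balanced, with 7 of 23 higher and 8 lower in both Diabetic libraries, where 19.8% and 17.4% of all genes were so. Fbln2, fibulin 2, a matrix protein that binds elastic fibres and basement membranes (chr6:91212455-91272540, + strand, GRCm38), measured 144, 212, 52.8 and 43.1 CPM. Both Diabetic libraries lay below both Control libraries, and Fbln2 fell by 1.91 ± 0.19 (adjusted p = 0.000173). A Fbln2 UMI was found in 35.8%, 45.5%, 19.7% and 15.6% of the cells, against at most 0.312% of the rods and 2.16% to 4.096% of the wider set, and in 12.96%, 16.7%, 5.49% and 7.5% after thinning to 1000 UMIs. Fbln5, fibulin 5, which elastic fibre assembly needs (chr12:101746565-101819055, − strand, GRCm38), measured 47.5, 75.6, 13.5 and 6.33 CPM. It fell by 2.55 ± 0.36 (adjusted p = 0.00291), the groups did not overlap, and its UMIs came from 10, 6, 13 and 5 cells. In all arterial cells the log2 change of Fbln5 was −3.18 without Diabetic 1 and −2.48 with all 4 libraries.

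The promoters of both fibulin genes are shown because the genes moved together, with a search for the core of the RBPJ motif, RBPJ being the DNA-binding partner of Notch. The core searched was TGGGAA, or TTCCCA on the other strand, and 25.6% of 32851 RefSeq promoters of the same length hold it. Each sequence runs 5′ to 3′ on the gene's strand from 250 bases before to 50 after a RefSeq start (GRCm38.p6), 1 start being shown where RefSeq lists several, and capitals mark the core.
Fbln2, chr6:91212514-91212813, + strand: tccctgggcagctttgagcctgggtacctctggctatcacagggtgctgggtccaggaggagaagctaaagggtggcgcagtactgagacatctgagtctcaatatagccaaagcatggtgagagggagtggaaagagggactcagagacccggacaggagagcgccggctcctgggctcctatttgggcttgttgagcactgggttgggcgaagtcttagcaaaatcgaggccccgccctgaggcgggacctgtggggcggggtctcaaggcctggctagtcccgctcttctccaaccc
Fbln5, chr12:101819070-101819369, − strand: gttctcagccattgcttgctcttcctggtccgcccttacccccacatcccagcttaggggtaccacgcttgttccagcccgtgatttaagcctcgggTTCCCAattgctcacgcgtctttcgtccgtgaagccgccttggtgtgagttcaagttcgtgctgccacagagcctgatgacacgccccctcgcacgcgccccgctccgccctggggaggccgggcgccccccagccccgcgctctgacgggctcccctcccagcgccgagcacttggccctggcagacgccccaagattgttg
The Fbln5 window holds 1 core and the Fbln2 window none. Of the promoters found, 4 of 24 of the arterial list and 8 of 23 of the matrix list hold the core.

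Ecm2, an extracellular matrix protein, measured 41.3, 49.4, 11.4 and 7.599 CPM and fell by 2.22 ± 0.36 (adjusted p = 0.00718). Ltbp4, which binds latent TGF-beta and takes part in elastic fibre assembly, measured 683, 1190, 488 and 503 CPM and fell by 0.97 ± 0.17 (adjusted p = 0.0103). Both genes separated the groups without overlap, and in all arterial cells the change of Ltbp4 was −0.93, and −0.42 without Control 2. Eln, elastin itself, measured 76.6, 122, 84.9 and 96.3 CPM, so the Diabetic libraries lay within the Control range, and it did not pass the test (−0.18 ± 0.20, adjusted p = 0.76). Col8a1, a short-chain collagen of the vessel wall, measured 30.6, 31.99, 7.84 and 17.7 CPM and did not pass either (−1.47 ± 0.42, adjusted p = 0.119). Mgp, matrix Gla protein, an inhibitor of calcification, was the member that rose. It measured 828, 1486, 2803 and 2306 CPM and rose by 1.10 ± 0.20 (adjusted p = 0.013), again without overlap. Its change over all arterial cells was 1.12, and 0.73 without Control 1. It measured 62.5, 75.3, 148 and 85.1 CPM in rods, which should lack it. Smooth muscle markers, given above, overlapped between the groups and were lowest in Diabetic 2.

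**Figure D2:**
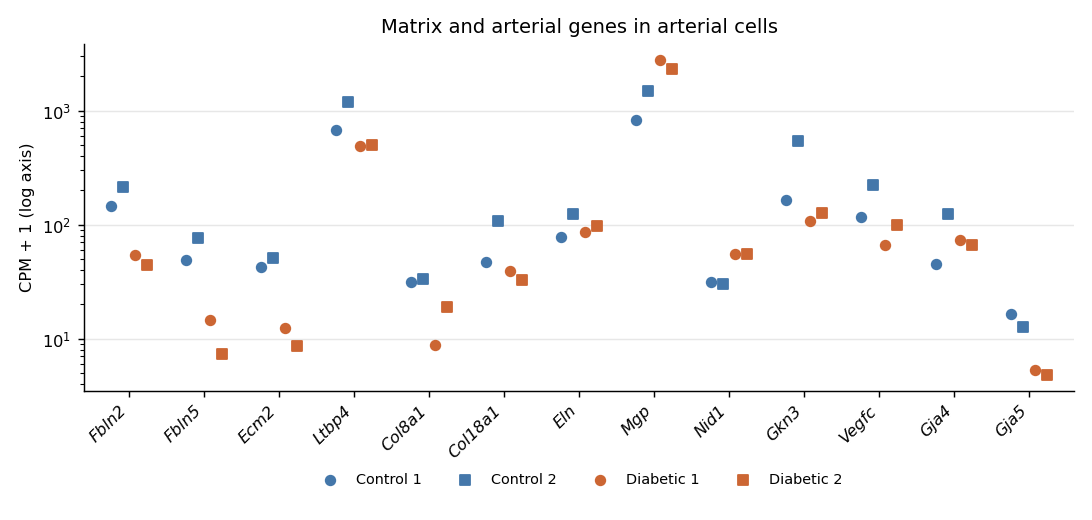
CPM plus 1 (log axis) of matrix and arterial genes in the arterial cells, 1 point per library; blue is Control, orange Diabetic, circles replicate 1 and squares replicate 2. Fbln2, Fbln5, Ecm2 and Ltbp4 lie lower and Mgp higher in both Diabetic libraries, and Eln overlaps.

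A few arterial identity genes fell. Of 26 tested members of the identity and Notch list 4 fell and 0 rose, where 0.644% and 0.799% of all genes did so, and the list median was −0.32. In all arterial cells 11 of 26 lay lower and 2 higher in both Diabetic libraries, where 17.4% and 19.8% of all genes were so. In rod-limited other endothelial cells 3 of 26 were called lower and 0 higher, with a median of −0.18. The 4 that fell in arterial cells were Fbln2, Gkn3, Vegfc and Cdh13, and Fbln2 is a member of the matrix list as well. Gkn3 measured 164, 538, 106 and 125 CPM and fell by 1.52 ± 0.31 (adjusted p = 0.029), with Control 2 far above the rest and both Diabetic libraries lowest. Its log2 change over all arterial cells was −0.47 without Control 2 and −2.28 without Control 1. Vegfc fell by 1.07 ± 0.23 (adjusted p = 0.0311), and the levels given above did not overlap between groups. Over all arterial cells Vegfc gave −1.04, and −0.49 without Control 2. Cdh13, T-cadherin, a receptor for adiponectin, measured 103, 157, 67.03 and 51.9 CPM, lower in both Diabetic libraries, and fell by 1.10 ± 0.21 (adjusted p = 0.0183). Only 2 of the 5 gate markers were found in 24.8%, 25.5%, 37.5% and 36.1% of the arterial cells. In cells with over 5 marker UMIs Gkn3 measured 195, 557, 159 and 240 CPM, where Diabetic 2 lay above Control 1. Fbln2 measured 177, 256, 70.4 and 86.5 CPM in those cells, without overlap. The part of marker number in these falls was not tested.

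The other Notch pathway and gap junction genes gave no call. Gja4 overlapped between groups, with a change of −0.27 ± 0.28, and Gja5 had too few UMIs to pass the filter of the test. In the 5 alternatives where it did pass, its log2 change was −2.02 to −1.67, and it was not called (edgeR adjusted p 0.29 or more). Efnb2 measured 121, 256, 99.1 and 109 CPM (−0.84 ± 0.22, adjusted p = 0.0857) and Jag1 142, 198, 96.99 and 118 CPM (−0.61 ± 0.21, adjusted p = 0.2). Both lay lower in both Diabetic libraries without passing the test. Dll4 measured 104, 160, 91.3 and 118 CPM and overlapped. Sox17, Notch4, Unc5b and Edn1 had changes of −0.15, 0.04, −0.59 and −0.09 and did not pass. Cxcl12 measured 2781, 2539, 4318 and 4081 CPM, higher in both Diabetic libraries, and missed the threshold (0.58 ± 0.16, adjusted p = 0.104). Of the gate genes, described with no test, Bmx measured 220.5, 268, 200.4 and 189 CPM, Sema3g 282, 521, 277 and 261 CPM and Stmn2 306, 398, 419 and 318 CPM. A Hey1 UMI was found in 67.9%, 78.2%, 57.5% and 58.2% of the arterial cells, lower in both Diabetic libraries. For Egfl8 the shares were 32.1%, 40%, 40.5% and 49.2%, higher in both.

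Some heat shock chaperone genes fell. Of 20 tested members of the list 3 fell and 0 rose, where 0.644% and 0.799% of all genes did so, and the median was −0.43. In rod-limited other endothelial cells 9 of 20 were called lower and 0 higher, with a median of −0.41, so this fall was not particular to arterial cells. In all arterial cells 12 members lay lower in both Diabetic libraries, where 17.4% of all genes did so. Hsph1, which encodes the HSP110 chaperone (chr5:149614287-149636376, − strand, GRCm38), measured 79.6, 63.98, 12.1 and 10.1 CPM. It fell by 3.02 ± 0.34 (adjusted p = 0.000396), and the share of cells with a UMI was 32.1%, 27.3%, 6.18% and 6.56%. The rods of the same libraries gave 11.8%, 12.7%, 5.74% and 7.37%, and the wider set 26.03%, 28.5%, 12.6% and 16.7%. Only Control 1 lay above both backgrounds of its own library. Control 2 and Diabetic 1 lay above their rods but below their wider set, and Diabetic 2 lay below both. After thinning the shares were 8.33%, 7.41%, 1.18% and 1.67%. Dnaja1, a co-chaperone of HSP70 (chr4:40722150-40737149, + strand, GRCm38), measured 361, 462, 143 and 179 CPM and fell by 1.40 ± 0.16 (adjusted p = 0.000425). The groups did not overlap for either gene. Hsp90aa1, the inducible HSP90, measured 1412, 791, 792 and 461 CPM and fell by 0.82 ± 0.15 (adjusted p = 0.013), although Control 2 and Diabetic 1 were level in all cells. There its change was −0.82, against −0.38 without Control 1 and −0.50 without Diabetic 2. In the other endothelial cells Hsph1 measured 52.9, 73.7, 16.7 and 11.9 CPM and in rods 36.5, 30.3, 19.9 and 17.9 CPM, so the Diabetic libraries were lower in all 3 kinds of cell.

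The promoters of Hsph1 and Dnaja1 are shown because heat shock factor binds repeats of GAA. The pairs searched were GAANNTTC and TTCNNGAA, each its own reverse complement. The full element was 3 alternating units at the same spacing, so that both pairs overlap in it, and it was searched on both strands. Capitals mark any match, and windows and build are as for the fibulins.
Hsph1, chr5:149636287-149636586, − strand: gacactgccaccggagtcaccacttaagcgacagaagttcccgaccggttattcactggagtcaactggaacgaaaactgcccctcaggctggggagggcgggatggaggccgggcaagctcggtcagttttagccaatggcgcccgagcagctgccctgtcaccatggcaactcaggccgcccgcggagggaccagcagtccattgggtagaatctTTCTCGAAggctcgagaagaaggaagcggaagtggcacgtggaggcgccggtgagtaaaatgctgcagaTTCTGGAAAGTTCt
Dnaja1, chr4:40722218-40722517, + strand: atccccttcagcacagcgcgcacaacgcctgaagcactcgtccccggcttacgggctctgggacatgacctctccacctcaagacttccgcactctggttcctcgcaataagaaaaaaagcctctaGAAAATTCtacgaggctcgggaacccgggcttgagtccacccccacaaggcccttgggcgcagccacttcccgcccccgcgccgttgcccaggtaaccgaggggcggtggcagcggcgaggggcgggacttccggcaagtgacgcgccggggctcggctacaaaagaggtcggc
The full element stands in the Hsph1 window, as in 0.603% of the 32851 promoters and in 4 of 16 promoters of the heat shock list. The Dnaja1 window holds the pair GAANNTTC, as do 7.86% of all promoters.

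Several genes of the cytokine and acute-phase response rose. Of 22 tested members of the list 6 rose and 0 fell, where 0.799% and 0.644% of all genes did so, and the median was 0.57. In all arterial cells 12 of 23 lay higher in both Diabetic libraries, where 19.8% of all genes did so. In rod-limited other endothelial cells 7 of 26 were called higher and 0 lower, with a median of 0.52, so this rise was not particular to arterial cells. Pim3, a kinase gene switched on by cytokines, measured 70.4, 55.3, 235 and 347 CPM and rose by 2.08 ± 0.23 (adjusted p = 0.000374). Cebpd, a transcription factor of the acute phase, measured 73.5, 55.3, 204 and 228 CPM and rose by 1.61 ± 0.20 (adjusted p = 0.000996). Socs3, the feedback inhibitor of STAT3 signalling, measured 16.8, 84.3, 133 and 179 CPM and rose by 1.87 ± 0.36 (adjusted p = 0.0183). Both Diabetic libraries lay above both Control libraries for each of these genes, and Control 1 was the lowest for Socs3. The change of Socs3 over all arterial cells was 1.79, against 0.82 without Control 1 and 3.23 without Control 2.

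Ctla2a, a protease inhibitor, measured 322, 183, 951 and 1123 CPM, without overlap, and rose by 1.95 ± 0.25 (adjusted p = 0.000996). In the other endothelial cells it measured 336, 467, 750.1 and 863 CPM, and the difference between the effects, 1.01 ± 0.21, did not pass the test (adjusted p = 0.12). Ch25h, which makes an oxysterol, had 3 UMIs in the Control cells and 132 in the Diabetic cells, a ratio of CPM of 20.01 with a 95% counting interval of 6.7 to 98.3. Control 1 had no Ch25h UMI, and the fitted log2 change in all arterial cells was 4.28, against 2.77 without Control 1 and 8.90 without Control 2, where no Control UMI is left and the value depends on the prior count. Cd74, the invariant chain of MHC class II, had 3 UMIs in the Control cells and 58 in the Diabetic cells, a ratio of CPM of 8.79 with a 95% counting interval of 2.86 to 43.9. Of the gate genes, Lrg1, an acute-phase glycoprotein, had no Control UMI and 56.3 and 59.5 CPM in the Diabetic cells, at least 19.1-fold above a floor of 3 counts over the Control group. Lcn2, lipocalin 2, had none against 29.95 and 24.1 CPM, at least 9.25-fold, and rods held 4.996, 6.14, 42.3 and 207 CPM of it. The rule removed cells with much Lrg1 or Lcn2, so these are the levels left after that removal. Neutrophil markers summed to 0, 0, 28.5 and 32.9 CPM in the arterial cells, with Csf3r at 0 in all 4 libraries, and their part in these results was not tested.

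Several immediate early genes, which cells switch on within minutes of a stimulus, rose too. Of 21 tested members 7 rose and 0 fell, where 0.799% and 0.644% of all genes did so, and the median was 0.55. In rod-limited other endothelial cells 8 of 21 were called higher and 0 lower, with a median of 0.51. The rise of the list was thus not particular to arterial cells. Fos measured 609, 1251, 2572 and 2172 CPM and rose by 1.35 ± 0.21 (adjusted p = 0.00561). Atf3, a stress-induced factor, measured 30.6, 84.3, 190.4 and 149 CPM and rose by 1.74 ± 0.30 (adjusted p = 0.0103). Jun and the phosphatase gene Dusp1 rose by 0.81 and 0.93, and Ccn1, a matricellular gene of the shear stress list, measured 75.03, 163, 444 and 318 CPM and rose by 1.79 ± 0.27 (adjusted p = 0.00361). In all arterial cells, leaving out Control 1 or Control 2 gave log2 changes of 0.88 and 2.00 for Fos, 0.97 and 2.52 for Atf3 and 1.18 and 2.38 for Ccn1. The groups did not overlap for any of the 5. In the other endothelial cells Fos measured 482, 413, 1091 and 1272 CPM, higher in both Diabetic libraries too. The mitochondrial share, given above, was lower in the same libraries, and its part in these results was not tested. The flow-induced factors Klf2 and Klf4 had changes of 0.53 ± 0.14 and 0.39 ± 0.14 and did not pass (adjusted p = 0.0959 and 0.241).

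**Figure D3:**
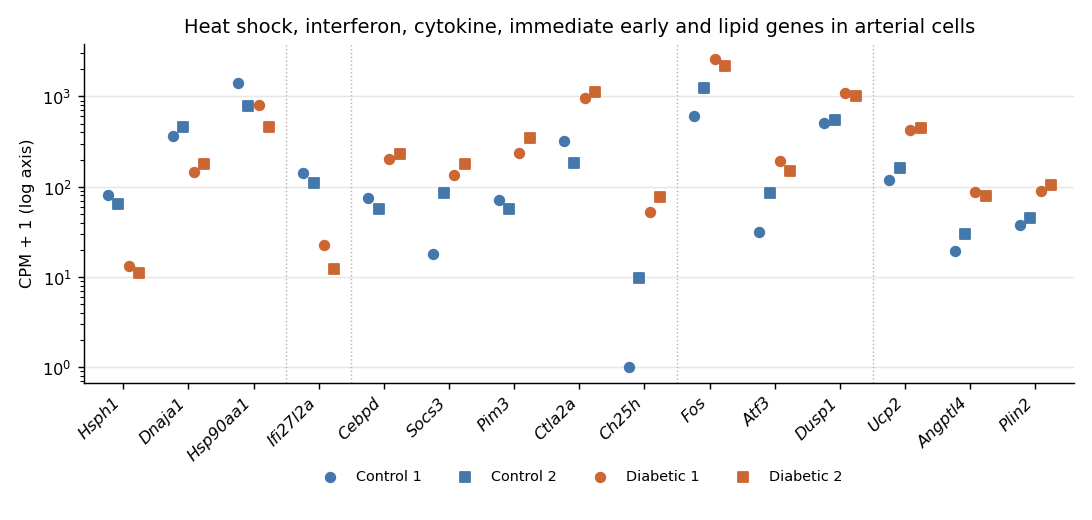
CPM plus 1 (log axis) of heat shock, interferon, cytokine response, immediate early and fatty acid genes in the arterial cells of each library, with dotted lines between the groups of genes; blue is Control, orange Diabetic. Hsph1, Dnaja1 and Ifi27l2a are lower in both Diabetic libraries, and Ucp2 is higher, at 421 and 441 against 118 and 160 CPM.

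Some genes known to respond to fatty acids rose, and a fatty acid binding protein fell. Of 18 tested members of the list for glucose, insulin and fatty acids 5 rose and 1 fell, where 0.799% and 0.644% of all genes did so. In rod-limited other endothelial cells 5 of 20 were called higher and 0 lower, and the list median was 0.29 in both classes. Ucp2, a mitochondrial carrier (chr7:100493337-100502020, + strand, GRCm38), measured 118, 160, 421 and 441 CPM and rose by 1.60 ± 0.16 (adjusted p = 0.000173). It was found in 44.95%, 50.9%, 71.4% and 78.7% of the arterial cells, against 2.91% to 5.19% of the rods and 12.2% to 24.4% of the wider set, and in 13.9%, 16.7%, 32.2% and 32.5% after thinning. Angptl4, an inhibitor of lipoprotein lipase, measured 18.4, 29.1, 85.6 and 78.5 CPM and rose by 1.74 ± 0.29 (adjusted p = 0.00718). Plin2, which coats lipid droplets, measured 36.7, 43.6, 88.4 and 104 CPM and rose by 1.25 ± 0.23 (adjusted p = 0.0147). Each of these 3 genes separated the groups without overlap.

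Fabp4, the fatty acid binding protein, measured 106, 26.2, 12.1 and 8.87 CPM and fell by 3.36 ± 0.56 (adjusted p = 0.00804), with Control 1 far above the rest. Its UMIs came from 4, 3, 11 and 3 cells, and a single cell held 85.5% of them in Control 1. Its log2 change over all arterial cells was −2.71, and −1.32 without Control 1. In rods it measured 32.5 to 41.03 CPM. Txnip, which high glucose is known to induce, measured 239, 288, 362 and 399 CPM, higher in both Diabetic libraries, and did not pass (0.46 ± 0.15, adjusted p = 0.18). The glucose transporter gene Slc2a1 measured 1683, 2431, 2770.5 and 2997 CPM and did not pass either (0.45 ± 0.14, adjusted p = 0.178). Slc16a1, the transporter of lactate and ketone bodies, measured 648, 695, 1199 and 1496 CPM, without overlap, and rose by 0.99 ± 0.15 (adjusted p = 0.00388). None of 15 glycolysis genes passed edgeR in rod-limited cells, where 5 had an unadjusted p under 0.05, and DESeq2 called none in all arterial cells.

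Few interferon genes passed the test, and the list as a whole showed no shift. Of 29 tested members 1 rose and 1 fell, where 0.799% and 0.644% of all genes did so. The list median was −0.06 against 0.00 for all genes. Ifi27l2a, an interferon-induced gene (chr12:103442167-103443680, − strand, GRCm38), measured 141, 108, 21.4 and 11.4 CPM and fell by 3.10 ± 0.31 (adjusted p = 0.000173), without overlap. It was found in 13.8%, 23.6%, 5.41% and 4.098% of the arterial cells and 0.452% to 0.956% of the rods, with 1.36% to 2.65% in the wider set, and 1 cell held 33.7% of its UMIs in Control 1. In the other endothelial cells it measured 17.4, 28.95, 5.51 and 16.5 CPM, and the difference between the effects, −1.78 ± 0.49, did not pass (adjusted p = 0.388). Ly6a, a surface protein, measured 1546, 1905, 2985 and 2869 CPM and rose by 0.70 ± 0.14 (adjusted p = 0.0267), without overlap. Rsad2, an antiviral gene, measured 81.2, 183, 68.5 and 60.8 CPM and did not pass (−0.48 ± 0.21, adjusted p = 0.351).

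Lists tied to the barrier and to signalling gave few calls. Among 13 junction genes, 18 TGF-beta and BMP genes, 18 Norrin and Wnt genes, 13 vascular tone genes and 17 ceramide and sphingosine phosphate genes, none passed edgeR in rod-limited cells, with medians of −0.15, 0.06, −0.02, −0.09 and 0.04. At an unadjusted p under 0.05 they had 2, 3, 6, 4 and 3 members there, and DESeq2 called none in all arterial cells. Nos3, the endothelial nitric oxide synthase, measured 179, 253, 159 and 169.7 CPM (−0.42 ± 0.17, adjusted p = 0.303) and Edn1, endothelin 1, measured 357, 587, 452 and 423 CPM, and neither passed. Venous genes had the highest list median, 0.77 over 9 members, and none passed edgeR, with 5 at an unadjusted p under 0.05 and no DESeq2 call. Among them Nr2f2, the venous transcription factor, measured 24.5, 20.4, 37.8 and 54.5 CPM (1.11 ± 0.36, adjusted p = 0.179), higher in both Diabetic libraries. The 11 mitochondrially encoded genes had the lowest median, −0.48, and none passed edgeR, with 7 at an unadjusted p under 0.05 and no DESeq2 call.

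**Figure D4:**
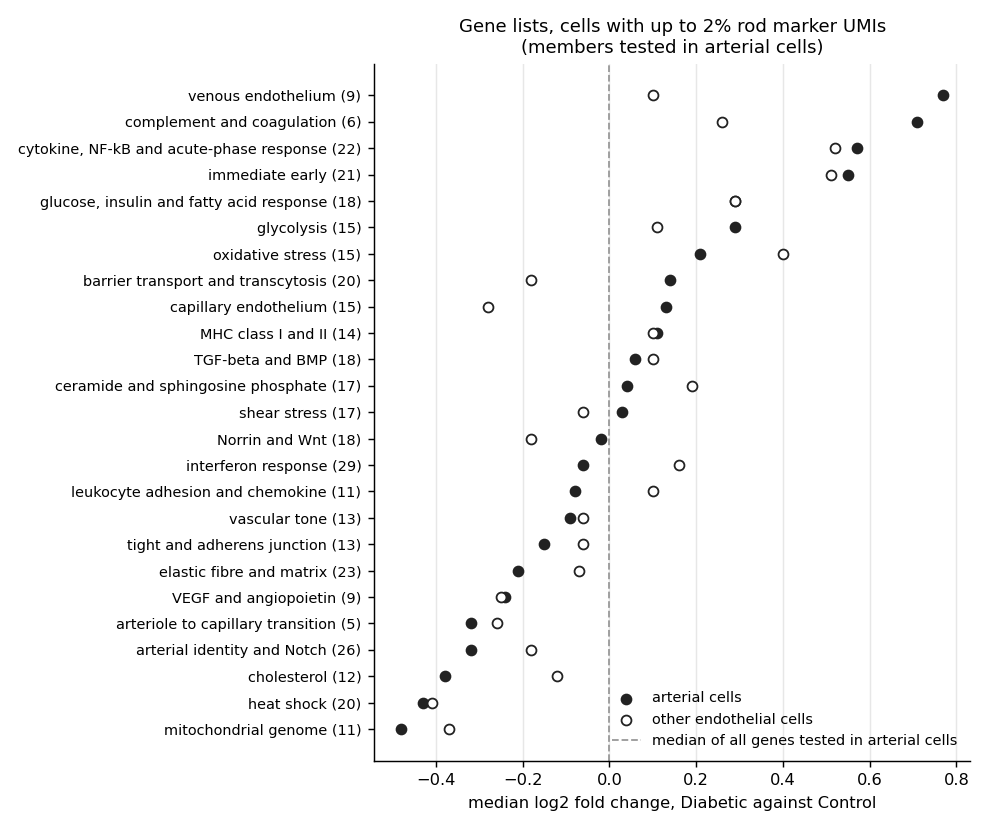
Median log2 fold change, Diabetic against Control, of each of the 25 gene lists in rod-limited arterial cells (filled) and other endothelial cells (open); the dashed line is the median of all genes. In arterial cells the list medians run from −0.48 (mitochondrial genome) to 0.77 (venous endothelium).

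Haemoglobin RNA was higher in the Diabetic arterial cells and came in large part from single cells. Hbb-bs, a beta globin gene, measured 338, 20.4, 3114 and 4918 CPM. A single cell held 95.5% of its UMIs in Control 1, 48.5% in Diabetic 1 and 99.6% in Diabetic 2. The 5 erythrocyte markers together made 521, 31.99, 5065 and 7964 CPM, and their part in other results was not tested.

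Whether the Diabetic change differed between arterial cells and the rest of the endothelium was tested as the difference between the effects. Over all cells edgeR called 0 of 11190 genes (0%), with 454 at an unadjusted p under 0.05 (4.06%), and DESeq2 called 0. In rod-limited cells edgeR called 7 of 9758 (0.0717%), 1 higher (0.0102%) and 6 lower (0.0615%). S100a4, a calcium-binding protein, measured 39.8, 40.7, 7.84 and 6.33 CPM in arterial cells and 4.48, 3.51, 8.68 and 22.3 CPM in the others, a difference of effects of −5.17 ± 0.61 (adjusted p = 0.000557). Cdh13 measured 12.6, 7.896, 21.5 and 29.7 CPM in the other cells, where both Diabetic libraries were higher, against lower levels in the Diabetic arterial cells (−2.10 ± 0.35, adjusted p = 0.0229). Fabp4, whose arterial UMIs came from the few cells given above, measured 27.1, 14.9, 30.02 and 32.6 CPM in the other cells, with a difference of effects of −4.00 ± 0.68 (adjusted p = 0.0234).

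The remaining calls were S100a6, Apoe, Laptm5 and Hbb-bs. Laptm5, a lysosomal gene of blood-borne cells, measured 24.5, 23.3, 10.7 and 5.07 CPM in arterial cells and 1.05, 3.51, 13.9 and 44.6 CPM in the others, where the microglial markers given above were also highest in the Diabetic libraries, and their part in these calls was not tested. For the fibulin gene Fbln2 the difference of effects was −1.24 ± 0.37 (adjusted p = 0.504) and did not pass. Fbln5 measured at most 2.26 CPM in the other endothelial cells. The differences were −0.32 ± 0.46 for Hsph1, 0.47 ± 0.23 for Pim3 and 0.57 ± 0.17 for Ucp2, none of which passed. In the other endothelial cells alone edgeR called 6 of 12831 genes higher (0.0468%) and 1 lower (0.00779%), 0.0546% in all. In rod-limited cells it called 135 of 10519 higher (1.28%) and 75 lower (0.713%), 2% in all.

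**Figure D5:**
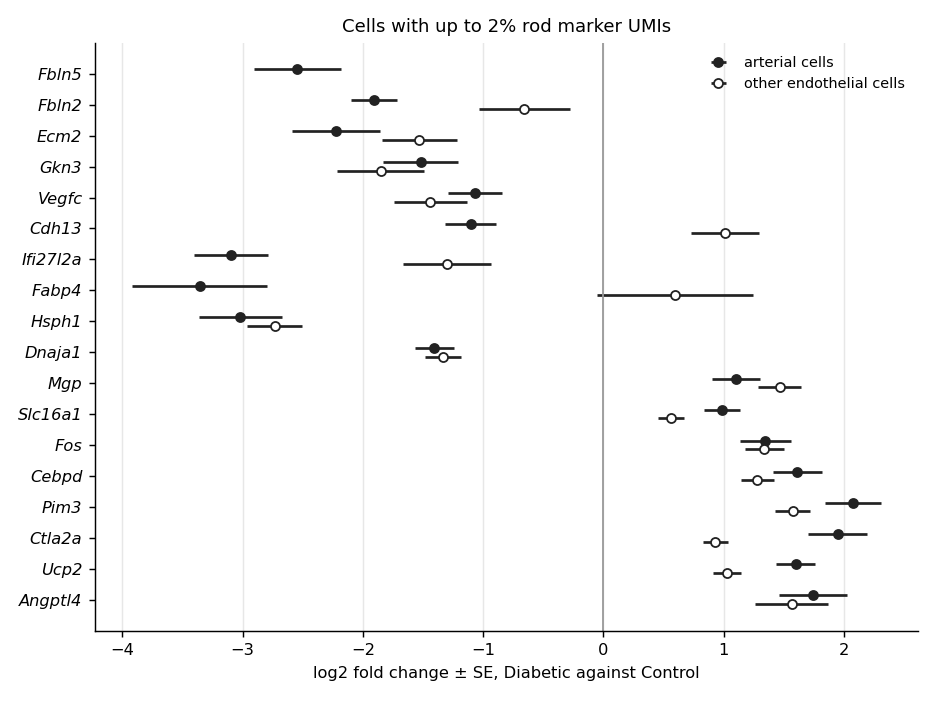
Log2 fold change ± SE, Diabetic against Control, of 18 named genes in rod-limited arterial cells (filled) and other endothelial cells (open, absent where the gene was too low to test). Cdh13 and Fabp4 lie below 0 in arterial cells, at −1.10 and −3.36, and Cdh13 lies above 0 in the others.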

How the data were processed

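The deposited files hold raw UMI counts per gene and barcode for each library, which per the submitters' processing notes came from Cell Ranger 7.0.0 and STAR 2.7.10b on mm10. Which other steps the authors took before deposit is not given in the sources used here. Of 55357 gene IDs, 52081 were matched in GENCODE M21 for coordinates. Cells were chosen by the rule that opens the report, and their counts were summed per library and cell class. The members and gene lists were chosen with earlier results of these data known.

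The sums were tested with edgeR 4.0.16 (quasi-likelihood test, TMM, filterByExpr, Benjamini-Hochberg adjustment over all genes) in R 4.3.3, with DESeq2 1.42.0 as an alternative. The edgeR test gives no SE, so each SE is the size of the log2 fold change over the square root of its F statistic. The code of the fits was also run on counts simulated with a fixed spread between libraries. That run cannot show how the fits behave at the spread of these libraries. Arterial against other cells used the library as a block, and the difference of the effects was fitted as an interaction. Replicate numbers were not taken to pair libraries, since the labels name no shared animal or batch. Intervals and floors cover counting error only. Doublets, called with Scrublet in scanpy 1.11.5 (at an expected rate of 0.8% per 1000 cells where its threshold marked under 0.5%), were left in and removed as an alternative. The rod limit, the wider rod background and the gate without Stmn2 were chosen after the data had been seen.

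Named genes were called genes of at least 20 CPM with the largest changes, up to 4 called or 2 uncalled members of each list, the 10 highest and 5 lowest arterial genes, up to 6 called genes of the difference of effects, and a set of arterial and diabetes-related genes named whatever their result. Ucp2, Ctla2a, Cebpd, Angptl4, Plin2, S100a4, Ly6a, Hsp90aa1, Ltbp4, Col8a1, Socs3, Jun, Dusp1, Car4, Slc38a5, Vcam1, Nr2f2 and others outside this rule were chosen after their values were seen. Some genes that the rule names are not reported here.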

Additional observations from a re-analysis of the deposited data

Results flagged for a closer look

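Cells that passed the arterial gate but were dropped as inflamed appeared in the Diabetic libraries only, and they stand outside the comparisons above. They made up 7.5% of the gated cells of Diabetic 1 (21 of 280, 95% exact Clopper-Pearson interval 4.70% to 11.2%) and 8.96% of those of Diabetic 2 (12 of 134, 4.71% to 15.1%). Control 1 had 0 of 109 and Control 2 had 0 of 55, for which the same kind of interval reaches up to 3.33% and 6.49%, and a floor of 3 counts gives 2.75% and 5.45%. The dropped cells were deeper than the arterial cells kept, with medians of 9400 and 13900.5 UMIs in Diabetic 1 and Diabetic 2 against 4383 and 5548.5. Scrublet marked 0 of the 21 and 1 of the 12 as doublets. Over all endothelial cells, arterial ones included, 1 of 743, 1 of 266, 92 of 1703 and 55 of 676 met the inflamed rule. Inflamed cells were thus not particular to the arterial gate. A deeper cell passes a limit set in UMIs more easily, and rods held more Lcn2 RNA in the Diabetic libraries, as given above. The part of depth and of such background RNA in these shares was not tested. The venous and leukocyte adhesion gene Vcam1 measured 869 and 558 CPM in these cells of Diabetic 1 and Diabetic 2, and Vwf, the von Willebrand factor gene, measured 1415 and 515 CPM. Mgp measured 7330 and 3273 CPM, Cebpd 633 and 340 CPM and Socs3 212 and 122 CPM. Against the levels of the kept cells given above, Mgp and Cebpd were higher in both Diabetic libraries, and Socs3 was higher in Diabetic 1 only. Of the arterial genes, Gkn3 had 2 and 0 UMIs there and Fbln2 3 and 1.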

How the results depend on the processing

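Counts of called genes depended on the processing, and the cause was not tested. For Diabetic against Control arterial cells, edgeR called 0 genes with all cells and likewise with RLE normalization, a stricter arterial gate, doublets left out, mitochondrial shares up to 10% or equal numbers of cells. It called 58 higher and 45 lower with no filter, 8 higher with cells thinned to 1000 UMIs, 11 and 5 with inflamed cells kept, 2 and 1 with the gate without Stmn2, and 62 and 50 in rod-limited cells, while DESeq2 called 7 and 3. Leaving out 1 library gave 5 to 27 higher and 1 to 45 lower. For the other endothelial cells the counts were 267 and 72 with no filter, 33 and 10 when thinned, 54 and 9 with DESeq2, 135 and 75 in rod-limited cells, and 7 to 280 higher and 0 to 124 lower without 1 library. Arterial against other cells gave 286 and 243 when thinned and 417 and 234 in rod-limited cells, and 1898 to 2786 higher and 1669 to 2550 lower without 1 library. The difference of effects gave 9 and 19 with no filter, 2 higher when thinned, 1 and 6 in rod-limited cells, and 0 to 7 higher and 0 to 25 lower without 1 library.

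With the replicate block, 38 arterial genes were called higher and 24 lower, 57 of these 62 being among the rod-limited calls, and 420 and 271 genes were called in the other endothelial cells. Libraries with the same number deviated together with a correlation of 0.42 over 8615 genes in arterial cells, with only 2 pairs.

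The difference in arterial share was −0.118 points when thinned and −1.84 with the stricter gate, and −2.89 to 3.17 without 1 library. Of 77 genes followed in arterial cells, which leave out the gate genes and genes too low for the test, 66 kept their direction in every alternative in which they were tested. The log2 changes of the others without 1 library ran from −0.678 to 0.03 for Dll4, −0.471 to 0.336 for Edn1, −0.489 to 0.273 for Eln, −0.859 to 0.686 for Gja4, −0.172 to 0.30 for Notch4, −0.418 to 0.197 for Sox17, −1.95 to 0.148 for mt-Atp6 and −1.91 to 0.267 for mt-Co3. With the stricter gate they were 0.239 for Dll4, 0.117 for Eln and 0.238 for Gja4. When thinned they were 0.38 for Eln, 0.044 for Nos3 and −0.221 for Notch4. Notch4 was −0.108 with equal cell numbers and −0.035 with inflamed cells kept, where Mfsd2a was −0.041, and Aqp1 was 0.048 in rod-limited cells.

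Arterial cells numbered 55 in Control 2, and sparse genes such as Gja5 fell below the filter of the test in most settings. A limit of 5 rod UMIs and no S100a8 or S100a9 UMI per cell was not run, since it left no Control cell.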
